A study of Homo sapiens with 2 samples.

Results

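Alpha granules are the most abundant storage granules of platelets, and megakaryocytes load them with adhesive proteins, coagulation factors and chemokines that are released or brought to the surface when a platelet is activated. The transcription factor GATA1 binds DNA at GATA words and, together with FOG1 and ETS factors, switches on many genes of the megakaryocyte lineage as these cells mature. The cargo genes described here were PF4, PF4V1, PPBP, VWF, SELP, THBS1, F5, MMRN1 and SPARC, 9 of the 17280 genes named on the arrays. They were taken by name, through the gene symbol and the distance to a transcription start that the array annotation gives for each probe. This rule uses no measured value, but the genes were chosen with earlier results of these data known.

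The study mapped GATA1 by ChIP-on-chip, that is chromatin immunoprecipitation read out on promoter arrays, in Meg-01, a human megakaryoblastic leukemia cell line, so that the model is a single leukemic line and not a primary megakaryocyte. The cells were untreated. Sonicated chromatin was precipitated with the GATA1 antibody C-20 (the IP) or with normal goat IgG as the background, and after linker ligation and amplification the IP DNA was labeled with Cy5 and the IgG DNA with Cy3. Both were hybridized together to a set of 2 arrays that carry different parts of the genome and are named chIP1 and chIP2 after the sample titles, and 7 cargo genes lay on chIP1 and 2 (VWF and THBS1) on chIP2. The lineage of the cells could not be checked here against marker transcripts, because the arrays hold genomic DNA.

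Each value below is log2 of the IP signal over the IgG signal of a probe, with the median of its array set to 0, so that positive values lie on the IP side and negative values on the IgG side. A window is the mean of 3 adjacent probes, each within 1000 bp of its neighbor, and it was called enriched at 2-fold or more toward the IP (log2 of at least 1) and depleted at 2-fold or more toward the IgG. Each probe was hybridized once, without a replicate or a dye swap. The number of arrays therefore limits the precision of every value, and no test between groups was possible. On 2392 control probes shared by the arrays, the technical SD of 1 probe was 0.12, against an SD of 0.97 over all probes of each array. The difference between these SDs is not a measure of binding. The technical SD compares control probes between the 2 arrays, and it does not cover variation from precipitation, linker ligation or amplification. The dimmest and brightest control probes were left out of it, so it does not describe the error of the dimmest cargo probes. Signals were low, with median processed signals of 869.5 (IP) and 919.8 (IgG) on chIP1 and 842.4 and 887.4 on chIP2. Per the labels, the chromatin fragments were longer than the median probe spacing of 177 bp on chIP1 and 178 bp on chIP2, so neighboring probes read overlapping DNA. Pearson's r between neighboring probes was 0.54 over 278 pairs within the cargo genes and 0.53 and 0.51 over all pairs of the arrays, given as a description.

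GATA words near the starts are shown here because they are the sequences that GATA1 is known to recognize. RefSeq promoter sequences (GRCh38.p14) were at hand for 7 of the 9 genes, and not for PF4 or VWF. The 250 bases before each start were searched on both strands for the word AGATAA, for AGATAG, for TGATAA and for TGATAG, each occurrence being counted even where words overlap. At least 1 of these 4 words was present in SELP, PPBP, MMRN1 and SPARC, 4 of the 7 genes, against 22.3% of 35116 RefSeq promoter entries. The word GGAA, the core of ETS sites, was present in 7 of the 7 genes and in 92.7% of all entries. These shares use different units, genes for the cargo genes and entries for the background. The 7 genes have 8 entries. By entry, a GATA word was present in 4 of the 8 and GGAA in 7 of the 8. The following sequences run 5′ to 3′ along the gene up to the base before the start, with GATA words in capitals. THBS1 is added because its probes near the start had the highest mean of the 9 genes while its sequence holds none of the words. MMRN1 has 2 entries, of which the second is shown, and the first holds 0 of the GATA words and 0 of the GGAA words, so that MMRN1 is counted above through its second entry alone. Which of them corresponds to the start used by the array was not determined, and for the other genes too the array start may differ from the RefSeq start.
SELP, chr1:169630125-169630374, minus strand: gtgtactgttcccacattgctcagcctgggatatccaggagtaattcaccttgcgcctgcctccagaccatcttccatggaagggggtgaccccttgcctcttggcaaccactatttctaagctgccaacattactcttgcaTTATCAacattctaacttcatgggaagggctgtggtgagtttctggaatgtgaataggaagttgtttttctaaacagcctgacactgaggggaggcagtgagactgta
PPBP, chr4:73988191-73988440, minus strand: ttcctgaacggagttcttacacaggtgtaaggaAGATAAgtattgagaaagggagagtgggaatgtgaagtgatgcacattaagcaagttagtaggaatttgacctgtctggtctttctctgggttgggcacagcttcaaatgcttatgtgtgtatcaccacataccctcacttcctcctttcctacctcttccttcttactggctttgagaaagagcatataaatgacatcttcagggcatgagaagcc
MMRN1, chr4:89894604-89894853, plus strand: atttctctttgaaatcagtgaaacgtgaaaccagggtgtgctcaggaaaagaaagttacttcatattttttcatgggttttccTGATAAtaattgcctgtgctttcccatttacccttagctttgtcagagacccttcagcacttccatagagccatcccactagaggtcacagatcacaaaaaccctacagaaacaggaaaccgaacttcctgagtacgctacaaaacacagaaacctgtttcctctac
SPARC, chr5:151686916-151687165, minus strand: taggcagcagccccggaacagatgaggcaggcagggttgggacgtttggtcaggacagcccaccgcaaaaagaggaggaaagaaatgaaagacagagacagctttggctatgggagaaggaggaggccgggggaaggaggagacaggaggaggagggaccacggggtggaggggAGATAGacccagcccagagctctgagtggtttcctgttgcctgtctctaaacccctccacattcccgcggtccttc
THBS1, chr15:39580829-39581078, plus strand: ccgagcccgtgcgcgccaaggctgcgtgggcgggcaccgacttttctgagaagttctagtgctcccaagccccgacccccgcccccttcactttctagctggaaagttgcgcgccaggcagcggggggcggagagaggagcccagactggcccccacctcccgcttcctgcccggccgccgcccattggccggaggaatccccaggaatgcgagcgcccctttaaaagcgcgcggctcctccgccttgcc

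The probes nearest to these words read on both sides of 0. In SELP, a TGATAA on the reverse strand lies from -108 to -103 bp, and the nearest probes, at -194 and -68 bp, read -1.05 and -1.68, both on the IgG side. In PPBP, an AGATAA lies from -217 to -212 bp, between a probe at -328 bp with 0.36 and a probe at -167 bp with -1.06. The TGATAA of MMRN1 lies from -167 to -162 bp, between probes at -225 and -46 bp with 0.11 and -0.02. The AGATAG of SPARC lies from -76 to -71 bp, and the probe at -124 bp read 0.42. A word in a sequence is a description and not a site, and these positions assume that the array and RefSeq starts coincide.

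As a group, the cargo genes leaned to the IgG more than the arrays did. All 294 of their probes passed the filter, and each of the 9 genes had windows, between 17 (PF4) and 48 (SPARC). An enriched window was found for 5 of the 9 genes (PF4, VWF, SELP, THBS1 and MMRN1), near the background of 57.1% of all 17054 genes with a window. A depleted window was found for 9 of the 9 genes, against 52.9% of all genes. Since the cargo genes had a median of 32 windows and all genes a median of 23, windows were also counted directly. Of 269 windows of the cargo genes, with the 4 that belong to a pair of cargo genes counted once, 15 (5.58%) were enriched and 45 (16.7%) depleted, against 7.62% and 9.65% of all windows on the arrays. The median highest window was 1.02 for the cargo genes and 1.09 for all genes, and the median lowest window was -1.45 against -1.05. The mean of all probes was below 0 in 6 of the 9 genes, with PF4, VWF and THBS1 above 0, and in 48.3% of all genes. By gene, the share of depleted windows was 39.4% in SELP and 37.0% in PPBP, and 18.8% to 27.3% in VWF, PF4V1 and F5. It was 11.8% in PF4 and 10.0% in THBS1, near the share of the arrays, and 4.2% in SPARC and 3.1% in MMRN1, below it.

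Whether the enriched calls held depended on how the signals were corrected. With loess, which removes a trend of the ratio with intensity, all 5 stayed and SPARC (1.01) was added. That made 6 of the 9 genes, against 58.3% of all genes, and 9 of the 9 had a depleted window, against 49.9%. With normexp background correction, which starts from the uncorrected mean and local background signals in place of the processed ones and adds an offset of 50, 0 of the 9 genes had an enriched window and 5 of the 9 (PF4V1, PPBP, VWF, SELP and F5) had a depleted window, while 33.1% and 23.9% of all genes did. With windows of 5 probes, the enriched genes were VWF and THBS1, 2 of the 9, against 34.1% of all genes. All 5 enriched calls were thus lost with normexp. PF4V1, PPBP, VWF, SELP and F5 had a depleted window both with normexp and with 5 probes, though not always at the same place. An offset added to both channels draws the ratios of dim probes toward 0 by construction, so this contrast is a description.

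**Figure D1:**
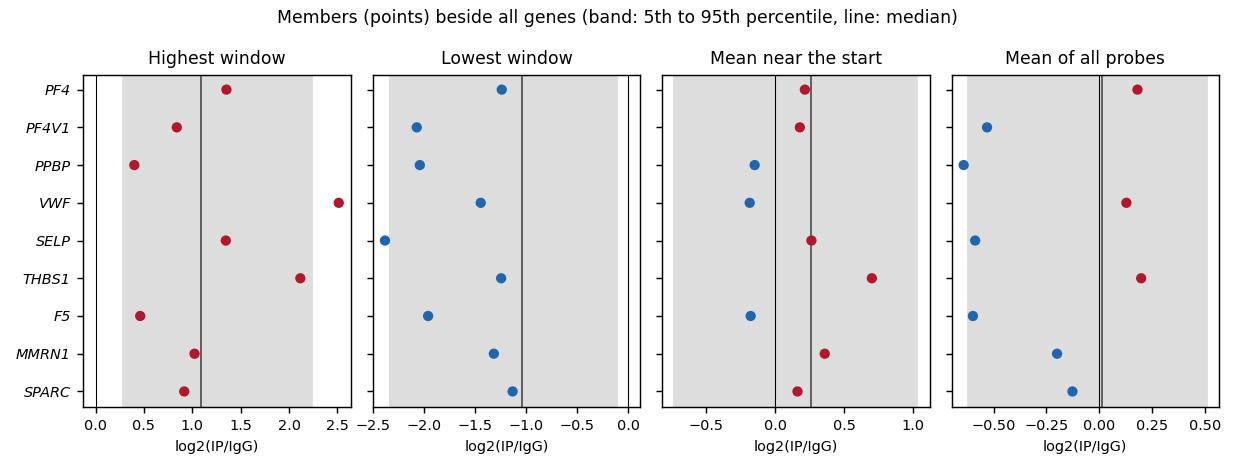
Highest window, lowest window, mean of the probes from 1000 bp upstream to 500 bp downstream of the start, and mean of all probes of each cargo gene on the log2(IP/IgG) scale (points; red above 0, blue below 0). Gray bands span the 5th to 95th percentile of all genes and vertical gray lines mark their medians. VWF lies beyond the band for its highest window (2.51), SELP beyond it for its lowest window (-2.39) and PPBP beyond it for the mean of all probes (-0.64).

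The balance of the sides changed with the distance to the start. Windows centered from 1000 bp upstream to 500 bp downstream of a start numbered 59 for the cargo genes, of which 3 (5.08%) were enriched and 4 (6.78%) depleted, against 9.78% and 4.87% of such windows over all genes, each counted once. Counted for each gene separately, as for the other distances here, these shares were 9.95% and 4.80%. The mean of the probes in this span was above the mean of the remaining probes of the gene in 8 of the 9 genes, VWF being the exception, and in 71.9% of all genes. The median difference was 0.63 for the cargo genes and 0.32 for all genes. From there to 10000 bp downstream of the start, 0 of 79 windows were enriched and 16 (20.3%) depleted, against 7.10% and 8.88% over all genes. More than 1000 bp upstream, 5 of 86 windows (5.81%) were enriched and 15 (17.4%) depleted, against 6.71% and 13.3%. More than 10000 bp downstream, where VWF, SELP and SPARC had probes, 6 of 44 windows (13.6%) were enriched and 10 (22.7%) depleted, against 6.91% and 12.4%. All 6 enriched windows there were in VWF, and the depleted ones were in SELP and VWF. The share of depleted windows was thus above that of all genes at every distance, and the difference was smallest at the starts. It was not spread evenly over the genes. At the starts, 3 of the 4 depleted windows were overlapping windows of VWF and 1 was in SELP. More than 1000 bp upstream, most were in PPBP and PF4V1. Those up to 10000 bp downstream lay in all cargo genes but PF4 and VWF.

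**Figure D2:**
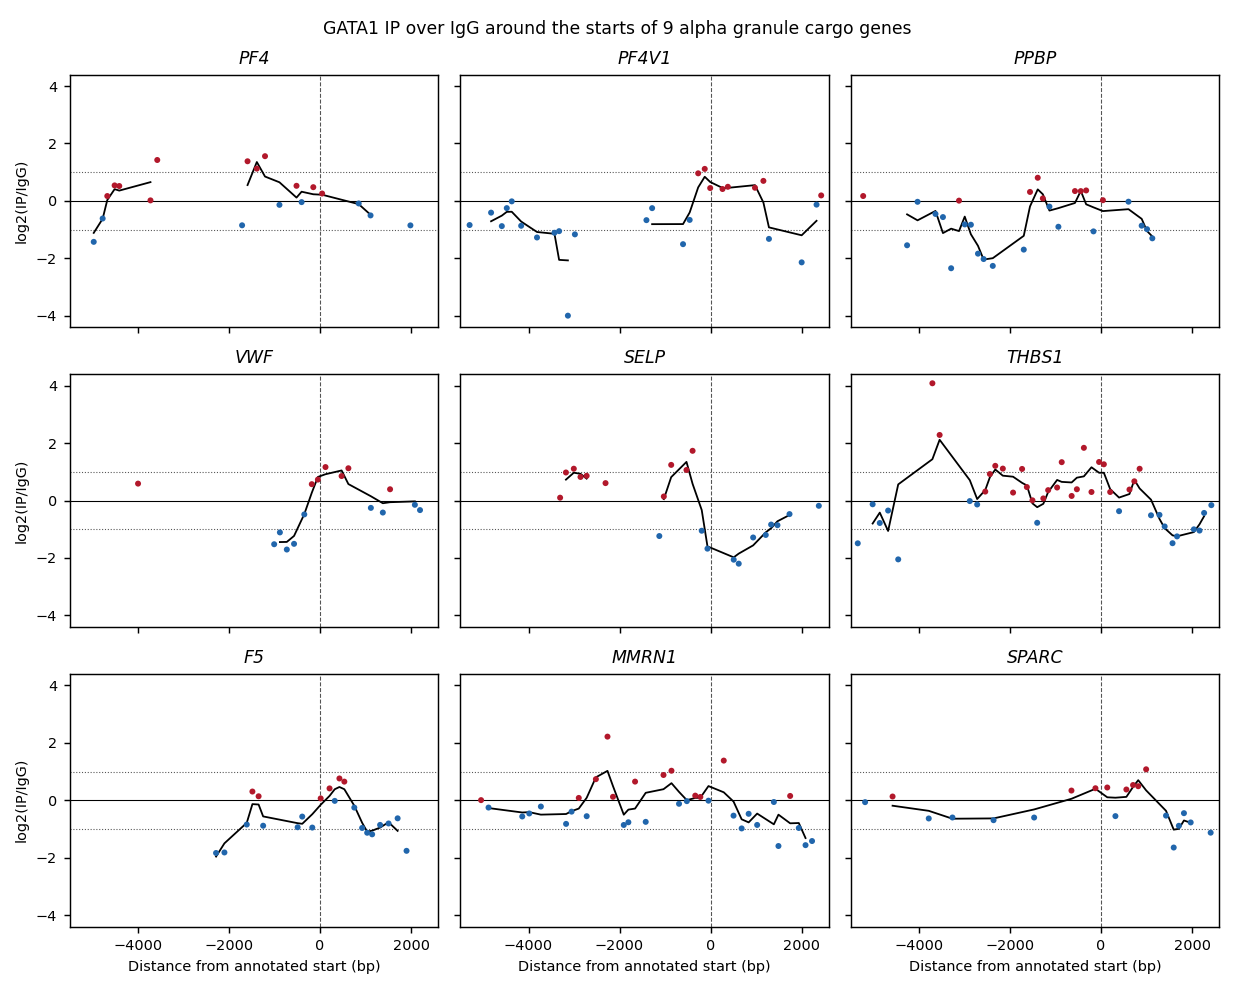
log2(IP/IgG) of every probe (points; red above 0, blue below 0) against the distance from the annotated start in bp for the 9 cargo genes, with the means of 3-probe windows as black lines, broken where window centers are more than 1000 bp apart. Dotted lines mark 2-fold to either side and the dashed line the start. SELP falls from 1.73 at -395 bp to -1.68 at -68 bp, VWF changes from the IgG side to the IP side between -346 and -181 bp, and THBS1 stays mostly above 0 from -2545 to +847 bp.

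Of the chemokine genes, PF4 encodes platelet factor 4 (CXCL4), a heparin-binding chemokine, PF4V1 a close variant of it, and PPBP the precursor of beta-thromboglobulin and neutrophil-activating peptide 2. They lie in the chemokine cluster of chromosome 4, PF4V1 on the plus strand and PF4 and PPBP next to each other on the minus strand. PF4 and PF4V1 are near-identical copies, so that probes may pick up DNA of both, and their values are uncertain in that respect. The highest window of PF4 was 1.35, on chromosome 4 from 75213892 to 75214335 in the coordinates of the array annotation, whose genome build is not given in the sources used here. Its 3 probes, at -1209, -1389 and -1593 bp, read 1.56, 1.12 and 1.38. They were dim, with IgG signals of 227, 285 and 69.8, and the window lay at the 9.35th intensity percentile of its array. Closer to the start, the 5 probes from -892 to +46 bp read between -0.14 and 0.52, with a mean of 0.21. The promoter of PF4 thus leaned to the IP more than 1 kb upstream and was near the array median at the start. The window was 0.41 with normexp, and the highest window of PF4 with 5 probes, centered at -1209 bp, was 0.89, both below 2-fold.

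PF4V1 had a different profile, with the IP side at the start and the IgG side on both flanks. The 7 probes from -272 to +1161 bp were all above 0, between 0.41 and 1.11, and its highest window (0.84) was centered at -128 bp, on chromosome 4 from 75083746 to 75084061, and stayed below 2-fold. Upstream, the 11 probes from -5295 to -2981 bp were all below 0, with a mean of -1.08. A run of 11 such probes was long for these arrays, where the median run below 0 was 2 probes and the 99th percentile 12. Its lowest window was -2.07, at 75080690 to 75081096, and rested in part on a single probe at -3135 bp that read -3.999 beside neighbors of -1.06 and -1.17. The median of these 3 probes was -1.17.

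PPBP had no window near 2-fold toward the IP. Its highest window was 0.40, at the 6.52nd percentile among genes of chIP1, and 10 of its 27 windows (37.0%) were depleted. The 6 probes from -2996 to -1699 bp read between -2.27 and -0.82, and the lowest window was -2.04, on chromosome 4 from 75221286 to 75221670. Its probes, at -2380, -2581 and -2705 bp, read -2.27, -2.03 and -1.84, with IgG signals of 1319, 4231 and 500.2 against IP signals of 274, 1036 and 140. Unlike the strongest windows on the IP side, this window was not dim, at the 37.5th intensity percentile. Around the start the values lay on both sides of 0, and the 6 probes from -938 to +40 bp had a mean of -0.15, an SD of 0.66 and a range from -1.06 to 0.36.

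PF4 and PPBP shared part of their flank. The probe at -4973 bp of PF4 (-1.43) is followed by the PPBP probes at +1126, +1010 and +892 bp, which read -1.31, -0.99 and -0.86, and the 6 probes of this run had a mean of -0.87. The lowest window of PF4 (-1.24) held its probe at -4973 bp and PPBP probes, so that the depleted window of PF4 lay at the far end of PPBP. Counted by windows centered on a PF4 probe, the lowest was -1.12, still past 2-fold. Of the 6 CXC chemokine genes in the same cluster (IL8, CXCL6, CXCL1, CXCL5, CXCL3 and CXCL2), 2 had an enriched and 6 a depleted window, against 57.1% and 52.9% of all genes, with a median highest window of 0.83 and a median lowest window of -1.72. Their highest windows ran from 0.57 in CXCL5 to 1.37 in CXCL6. No difference between these neighbors and the chemokine cargo genes was tested.

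VWF encodes von Willebrand factor, the multimeric protein that tethers platelets to collagen and carries factor VIII. It had the highest window of the 9 genes, 2.51, at the 97.3rd percentile among genes of chIP2. That window was not in the promoter but 173255 bp beyond the start, on chromosome 12 from 5930701 to 5930975. It lay near the far end of the probes annotated to VWF, the last of which was at 175787 bp. The 4 probes from 173370 to 172956 bp read 2.48, 2.40, 2.67 and 1.65, so that the value did not rest on a single probe. Their IgG signals were 208, 73.9, 107.5 and 75.1 against IP signals of 1162, 391, 688 and 237, and the window lay at the 11.8th intensity percentile. Less than 1 kb further along the gene, probes from 173770 to 174750 bp were all on the IgG side, 7 in a row with a mean of -0.86, and at the end of the covered stretch the values were positive again, with 1.598 and 1.72 at 175609 and 175787 bp. At the same place the value was 0.94 with normexp, just below 2-fold, and 1.97 with 5 probes.

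**Figure D3:**
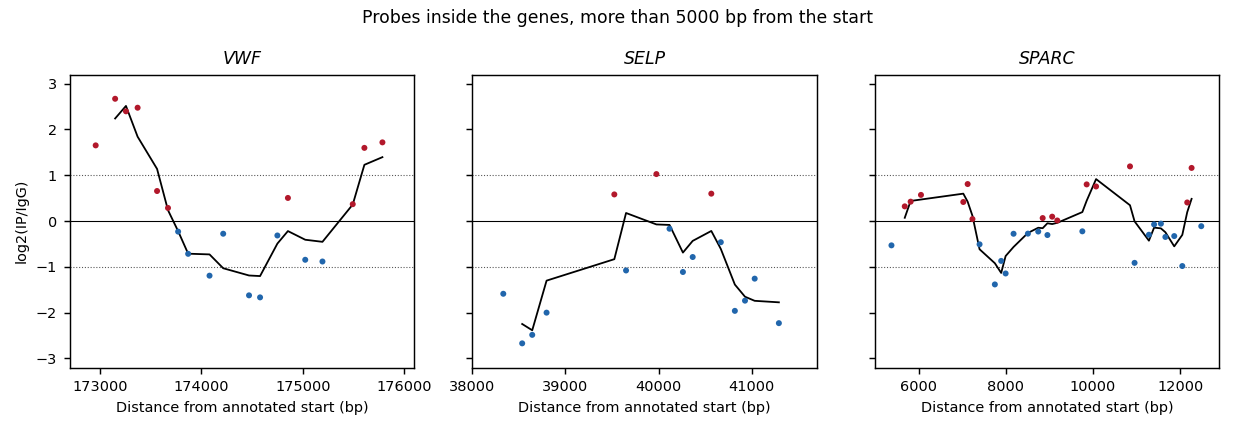
log2(IP/IgG) of probes far inside VWF, SELP and SPARC (points; red above 0, blue below 0) against the distance from the annotated start in bp, with 3-probe window means as black lines and dotted lines at 2-fold. VWF reaches 2.67 at 173148 bp and falls to -1.67 at 174579 bp, SELP reaches -2.67 at 38535 bp and -2.23 at 41293 bp, and SPARC stays within 2-fold except at 4 of these probes.

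At the VWF promoter the sign changed close to the start. The probes at -1008, -882, -730 and -571 bp read -1.52, -1.11, -1.71 and -1.51, and the probes at -181, -47, +120, +474 and +623 bp read 0.57, 0.73, 1.17, 0.85 and 1.12. The depleted stretch had IgG signals between 1412 and 3936. Its windows centered at -571, -730 and -882 bp lay at the 46.5th, 71.1st and 83.8th intensity percentiles. The window centered at +474 bp was 1.05, and the lowest window, centered at -882 bp, was -1.45, on chromosome 12 from 6104798 to 6105130. Because both sides fell within the span used for the start, its mean of -0.19 describes neither of them. Over 500 bp to either side of the start the mean was 0.57.

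SELP encodes P-selectin, the granule membrane protein that binds leukocytes after platelet activation. Its values changed sign just upstream of the start. The probes at -865, -529 and -395 bp read 1.24, 1.06 and 1.73, giving its highest window of 1.35, on chromosome 1 from 166331431 to 166331960. From -194 to +2379 bp, 10 probes in a row lay on the IgG side, with a mean of -1.18 and values down to -2.20 at +619 bp. The change fell between -395 and -194 bp. The upstream window was dim (8.05th intensity percentile), and at the same place it was 0.47 with normexp and 0.63 with 5 probes. The highest windows of SELP in these settings, 0.66 and 0.88, lay further upstream, at -3005 and -2858 bp, and were also below 2-fold. A further 6 probes from -3306 to -2308 bp were all above 0, between 0.10 and 1.11. The mean over the start span was 0.26, but -0.33 within 500 bp to either side and -0.12 with normexp, so its sign depended on the span and the correction.

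F5 encodes coagulation factor V, the cofactor of factor Xa, and lies downstream of SELP on chromosome 1 in the same orientation, so that the last SELP probes run into the F5 promoter. Inside SELP, the probes at 38797, 38643, 38535 and 38332 bp read -2.001, -2.49, -2.67 and -1.59, and the lowest window of all 9 genes (-2.39, from 166292239 to 166292560) lay there. These probes were very dim, with IP signals of 30.6 to 187, and the window was at the 3.26th intensity percentile. The end of SELP and the upstream flank of F5 then formed a run of 8 probes below 0 over 1467 bp, of which 3 were annotated to F5 and 5 to SELP, with a mean of -1.52. The lowest window of F5 (-1.96, from 166289451 to 166289802) belonged to this run. The depleted windows of the pair are therefore in part the same DNA counted for both genes.

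F5 had little on the IP side. Its highest window was 0.46, at the 8.33rd percentile among genes of chIP1, centered 426 bp downstream of the start on chromosome 1 from 166286816 to 166287086. The probes at +534 and +426 bp read 0.65 and 0.76, and those from -492 to -170 bp read between -0.95 and -0.57. Further into the gene, the 6 probes from +1705 to +925 bp lay between -1.19 and -0.63. Of its 22 windows, 6 (27.3%) were depleted and 0 enriched.

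THBS1 encodes thrombospondin 1, an adhesive glycoprotein that also activates TGF-beta, and among the 9 genes it had the promoter that leaned most to the IP. Its start mean was 0.70 over 10 probes, at the 84.2nd percentile among genes of chIP2, with 9 of the 10 probes above 0. The 11 probes from -1269 to +200 bp were all above 0, with the highest at -378 bp (1.84), -44 bp (1.34), -865 bp (1.34) and +61 bp (1.26). Probes between them at -211 and -647 bp read only 0.30 and 0.16, so the level was uneven. The start window centered at -211 bp was 1.16. The IP signals of these 10 probes ran from 397 to 5554, against the array median of 842.4, and the start mean was 0.59 with normexp.

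The highest THBS1 window by value lay elsewhere, on dim probes. It was 2.12, centered at -3548 bp on chromosome 15 from 37656835 to 37657716, and its probes at -3707, -3548 and -2885 bp read 4.08, 2.28 and -0.02. The probe at -3707 bp had an IgG signal of 42.4, among the dimmest of the cargo genes, and the window was at the 7.03rd intensity percentile. With neighbors within 500 bp required, the highest window of THBS1 was that at the start (1.16), and with normexp it was also there, centered at -211 bp (0.85), while the window at -3548 bp read 0.36. Downstream, the 9 probes from +1097 to +2423 bp were all below 0, with a mean of -0.81, and the lowest window was -1.25.

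MMRN1 encodes multimerin 1, which binds factor V in the granule. Its highest window of 1.02 stood at the threshold and rested on a single probe at -2265 bp (2.22), whose neighbors at -2520 and -2144 bp read 0.73 and 0.12. The median of these 3 probes was 0.73, and the highest median of 3 probes in MMRN1 was 0.88, at -1034 bp. The start itself was near the array median, since the 5 probes from -693 to -46 bp read between -0.12 and 0.16, while probes at -859 and +290 bp read 1.03 and 1.38. Inside the gene values were on the IgG side, and 9 of the 10 probes from +505 to +2230 bp were below 0. The lowest window, -1.32, was centered at +2087 bp.

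SPARC encodes osteonectin, a collagen-binding matrix protein. Its 52 probes had the smallest spread of the 9 genes, with an SD of 0.66 against 0.77 to 1.23 in the others. Its highest window was 0.92, far inside the gene at +10071 bp on chromosome 5 from 151035833 to 151036885, and passed 2-fold only with loess (1.01) among the settings with 3-probe means. Of its 48 windows, 0 were enriched and 2 (4.17%) depleted. The 4 probes around the start, from -651 to +315 bp, read 0.34, 0.42, 0.44 and -0.55.

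Dim probes carried much of the IP side. The highest window lay below the 25th intensity percentile in 5 of the 9 genes (PF4, VWF, SELP, THBS1 and MMRN1), which are the 5 genes with an enriched window, against 29.4% of all genes. The lowest window lay below it in 4 of the 9 genes (PF4, PF4V1, SELP and MMRN1), against 28.4% of all genes. The part of low signal in these values was not tested. A filter that required both channels of each probe to be well above background kept all 294 cargo probes, so it does not bear on this.

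**Figure D4:**
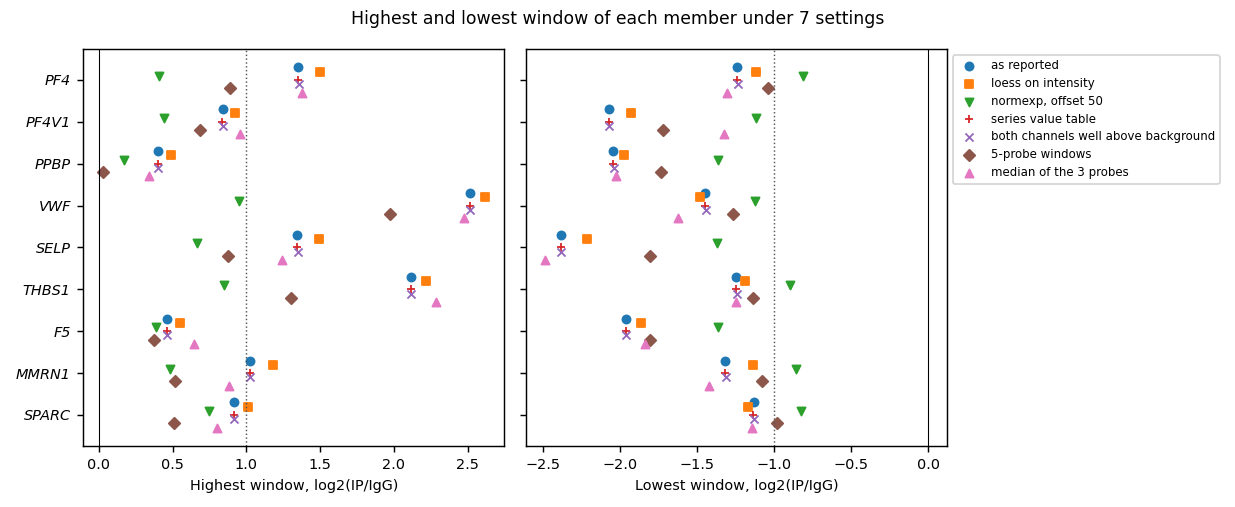
Highest (left) and lowest (right) window of each cargo gene on the log2(IP/IgG) scale under 7 settings, shown by marker and color, with dotted lines at 2-fold. With normexp (green triangles pointing down) the highest windows of all 9 genes lie below 1, and the lowest windows of PF4V1, PPBP, VWF, SELP and F5 stay below -1.

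Further alpha granule genes were counted from a list of 35, of which 33 had a window. An enriched window was found for 25 of the 33 and a depleted window for 21 of the 33, against 57.1% and 52.9% of all genes, with a median highest window of 1.20 and a median lowest window of -1.15. By role, 19 of the 26 genes for soluble cargo, 4 of the 4 for granule membrane proteins (CD63, CD9, CD36 and TREML1) and 2 of the 3 for granule formation (VPS33B and the gene named C14orf133 on the array, with VPS16 at 0.89) had an enriched window. The highest windows were those of VTN (2.61), which encodes vitronectin, CD36 (2.51), a thrombospondin receptor, and VEGF (2.45). A highest window tends to rise with the number of windows. CD36 had 77 windows, of which 7 were enriched and 33 depleted, and its mean of all probes was -0.64. VTN had 31 windows (4 enriched, 1 depleted) and VEGF 45 (8 enriched, 0 depleted). The lowest were those of FGA (0.45), which encodes the fibrinogen alpha chain, CXCL5 (0.57) and LTBP1 (0.59). With normexp, 12 and 9 of these genes had an enriched and a depleted window, against 33.1% and 23.9% of all genes. CXCL1 and CXCL5 are counted both in this list and among the chemokine neighbors. The 9 cargo genes thus had relatively fewer enriched and more depleted genes than this list, by counts alone and without a test.

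Of 6 platelet membrane receptor genes with a window, 4 had an enriched and 1 (GP5) a depleted window, against 57.1% and 52.9% of all genes, and their median start mean was 0.55, against 0.18 for the cargo genes and 0.26 for all genes. ITGA2B had the highest window among them (1.44) and ITGB3 the lowest (0.74). The start means of these receptor genes ran from -0.46 in GP1BA to 1.36 in GP9. They had from 9 (GP6) to 29 (ITGA2B) windows, against medians of 32 for the cargo genes and 23 for all genes. A gene with fewer windows has fewer occasions for either call. These lists are small, were measured once, and the difference between them was not tested.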

How the data were processed

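Agilent 2-color promoter arrays were analyzed from the deposited scanner output. Per the file headers, Feature Extraction 9.5.3.1 produced every intensity. The deposited processed intensities had spatial detrending and a linear dye normalization by the authors' software, whereas mean and local background intensities were deposited uncorrected. The deposited log10 ratio (Cy5 over Cy3) and its deposited p-value come from the scanner error model within 1 array, and these p-values were not reported here. The deposited series table holds the same log10 ratios and served as an alternative. In the study, lowess and median normalization preceded peak calling in commercial software, which was not run here.

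Control spots and non-uniformity outliers were removed, as were probes that neither channel marked as well above background, while saturated spots stayed in. This left 237004 of 237210 probes on chIP1 and 236864 of 237201 on chIP2. log2(processed IP over processed IgG) was centered on the median of each array. A window was counted for a gene when at least 1 of its 3 probes carried the gene's symbol, and each gene is described by its highest and lowest window. R 4.3.3 with limma 3.58.1 was used for normexp (offset 50) and loess (span 0.3), and Python 3.11.15 with pandas 2.3.3 for windows. The window caller was tested on simulated data, and its rate of false calls on these arrays was not tested. Samples were grouped by title, 1 array each, and no test was run because there is no replicate. Genes named in the text are the 9 cargo genes, the 3 highest and 3 lowest of the other alpha granule genes, and the highest and lowest of the chemokines and receptors, besides those listed by role or named where a count is 1. The members and lists were chosen with earlier results of these data known. The genome build of the array coordinates is not given in the sources used here, and no coordinate was converted.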

Additional observations from a re-analysis of the deposited data

How the results depend on the processing

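No paired analysis was possible because the arrays share no genomic probe and every probe was hybridized once. Several settings left the counts of cargo genes and of other alpha granule genes within 1.5 times the reported counts. These were loess on intensity, the series table, a looser or stricter filter on dim probes, single probes, neighbors within 500 bp and a 1.5-fold threshold. The shares of all genes with an enriched and a depleted window rose to 86.1% and 81.0% with single probes. At 1.5-fold they were 85.0% and 78.4%. With normexp, 0 cargo genes had an enriched and 5 a depleted window. Of the other alpha granule genes 12 and 9 did, against 33.1% and 23.9% of all genes. The median highest window of the cargo genes was then 0.48, and their median start mean was 0.0017. With windows of 5 probes, 2 cargo genes and 14 other genes had an enriched window, and 8 and 14 had a depleted window. Of all genes, 34.1% had an enriched and 33.5% a depleted window. The median highest window of the cargo genes was 0.68. At 3-fold, 2 cargo genes had an enriched and 4 a depleted window. Of the other genes 9 and 11 did, against 20.6% and 22.3% of all genes. A higher threshold or a wider window lowers counts by construction. The offset used with normexp draws the ratios of dim probes toward 0 by construction, and its part in the shifts under normexp was not tested.

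Windows centered on a probe of the gene, and the median of the 3 probes, were tried after the data had been seen. The first changed no count of cargo genes. The second gave 4 cargo genes with an enriched window, against 55.6% of all genes, and a median highest window of 0.96. Neither change of the filter on dim probes added or removed a cargo probe. Over the single genes, 78 of 90 highest windows and 85 of 90 lowest windows stayed on the same side of 2-fold under the alternatives. Of the means, 39 of 45 over all probes and 46 of 54 at the start moved by no more than the technical SD of 1 probe. That SD does not cover precipitation or amplification and served only as a yardstick. These tallies include the series table and both changes of the dim-probe filter. Those settings left the cargo values nearly unchanged by construction, so the tallies overstate how stable the values were. The mean of all probes changed sign with normexp in PF4 (-0.06) and VWF (-0.05). The start mean changed sign in SELP with normexp (-0.12) and within 500 bp of the start (-0.33), and in VWF within 500 bp (0.57). Low signal limits the windows of the dimmest probes, and a second hybridization of each array was not among the data.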
